A study of Mus musculus with 70 samples.

Results

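The GABAergic interneuron identity genes examined here were the 9 genes Gad1, Gad2, Slc32a1, Pvalb, Calb2, Reln, Lhx6, Dlx1 and Erbb4, taken by their symbols from a table of 24346 genes measured in mouse dorsal hippocampus. They were listed for what they encode (transmitter enzymes and transporter, calcium-binding proteins, a secreted protein, lineage factors and a receptor), and the rule uses no measured value. RNA from the dorsal hippocampus of adult male C57BL/6J mice was sequenced in 70 libraries, 10 in each of 7 groups, to ask how patterns of voluntary wheel running alter gene expression during memory consolidation. Groups are named by days of initial running, sedentary delay and reactivating running. The 5 exercise groups were 0-0-2, 14-14-0, 14-7-2, 14-0-0 and 14-7-0. Sedentary mice (0-0-0) had no running, and home cage mice had neither running nor training. Every group except home cage received a 3 min subthreshold object location memory (OLM) session 1 h before tissue collection, and mice of all groups were housed singly. Each group drew 5 libraries from each of 2 harvest cohorts collected on separate days. The labels count each library as a separate sample.

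Interneurons are the inhibitory neurons of the hippocampus and make up a minority of its neurons. They make GABA from glutamate with glutamate decarboxylase and load it into vesicles with the transporter encoded by Slc32a1. Their subtypes are told apart by calcium-binding proteins and peptides: parvalbumin marks fast-spiking basket and axo-axonic cells, calretinin (Calb2) marks interneurons that mainly contact other interneurons, and in the mouse also the mossy cells of the dentate hilus, and reelin marks neurogliaform and some somatostatin cells, and Cajal-Retzius cells. The Dlx homeobox factors specify GABAergic fate in the embryonic ganglionic eminences, Lhx6 acts in cells born in the medial eminence, and ErbB4 is the neuregulin receptor of many interneurons. In bulk tissue a lower level cannot be divided between fewer cells of a type and less RNA in each cell.

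Sequence upstream of 4 of the genes is shown first. They are the 3 genes of GABA synthesis and packaging and Lhx6, which most often had an unadjusted limma p under 0.05 between groups. The letters are RefSeq sequence of GRCm38.p6, 5′ to 3′ on the gene's strand, from 250 bases before the RefSeq start to that start or to the first annotated exon base, whichever came first. The Gad1 stretch lies inside the annotated span of the gene but outside its exons, and the other 3 lie just upstream of their genes' spans. Capitals mark a match to TATAAA (the TATA box) or GGGCGG (the GC box) on either strand.
Gad1, chr2:70561879-70562041, plus strand: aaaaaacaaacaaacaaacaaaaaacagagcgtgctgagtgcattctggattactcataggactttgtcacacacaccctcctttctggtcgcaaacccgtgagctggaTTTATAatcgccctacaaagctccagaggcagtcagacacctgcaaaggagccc
Gad2, chr2:22622077-22622204, plus strand: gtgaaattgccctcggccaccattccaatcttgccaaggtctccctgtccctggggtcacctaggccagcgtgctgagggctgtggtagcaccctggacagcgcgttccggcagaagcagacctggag
Slc32a1, chr2:158610508-158610757, plus strand: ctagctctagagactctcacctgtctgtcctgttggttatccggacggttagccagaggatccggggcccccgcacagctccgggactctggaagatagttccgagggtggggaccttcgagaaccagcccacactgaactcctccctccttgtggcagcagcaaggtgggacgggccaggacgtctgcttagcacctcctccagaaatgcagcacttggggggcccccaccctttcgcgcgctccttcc
Lhx6, chr2:36105409-36105658, minus strand: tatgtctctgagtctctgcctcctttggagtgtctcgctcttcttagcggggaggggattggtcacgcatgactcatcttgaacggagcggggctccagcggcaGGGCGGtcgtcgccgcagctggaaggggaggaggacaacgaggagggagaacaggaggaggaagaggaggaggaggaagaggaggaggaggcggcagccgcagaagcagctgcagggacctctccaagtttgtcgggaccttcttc
The stretches held 46.6% G and C for Gad1, 62.5% for Gad2, 62.4% for Slc32a1 and 61.6% for Lhx6, beside a median of 52.4% over the 250 upstream bases of all 32851 RefSeq promoters in the table. The TATA box match of Gad1 lies on the opposite strand, and 12.4% of all 250-base windows hold that motif. A GC box is in 32.7% of all windows. The letters TAATTA, a core shared by many homeodomain factors, are in 4.84% of all windows and in 0 of the 11 windows of the 8 genes that matched the table. Calb2 had no entry. Each match describes letters in a window and no more.

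All 9 genes were expressed in every library. Levels are in FPKM, read counts scaled by transcript length and library size, so that levels of different genes can be compared. Over the 70 libraries the mean was 126.7 FPKM for Gad1, 47.4 for Pvalb, 37.6 for Gad2, 26.5 for Slc32a1, 13.9 for Calb2, 6.37 for Reln, 5.52 for Lhx6, 4.40 for Dlx1 and 3.96 for Erbb4. No library listed any of them at 0, and all 9 passed the minimum mean of 1 FPKM that 12994 genes passed. Gad1 was above Pvalb in 70 of 70 libraries and Pvalb above Gad2 in 64, but Dlx1 was above Erbb4 in 27 of 70, so that the last 2 did not keep 1 order across libraries. Gad1 RNA exceeded Gad2 RNA by a median ratio of 3.55.

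A shallow library and a small number of libraries of unusual makeup bear on what follows. Relative depth, estimated from the step size of low values against sedentary replicate 0, ranged from 0.346 to 1.48 in 69 libraries and was 0.0361 in 14-7-0 replicate 4, which lists 10279 genes at 0 beside 6243 to 7199 in the others. Across all 12994 tested genes, no gene passed a Benjamini-Hochberg adjusted limma p of 0.05 in any of the 8 pairwise comparisons.

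In 3 libraries Gad1, Gad2 and Dlx1 had their highest values. Sedentary replicate 6, 0-0-2 replicate 4 and 14-14-0 replicate 3 were the highest 3 of 70 for Gad1, Gad2 and Dlx1. Gad2, the vesicle-associated glutamate decarboxylase, read 139.4 FPKM in sedentary replicate 6, 105.5 in 0-0-2 replicate 4 and 65.1 in 14-14-0 replicate 3, beside 28.1 to 46.0 in the other 67. Dlx1 read 29.8, 15.2 and 13.02 FPKM in the same order, beside 2.07 to 5.97. Gad1, which makes most of the brain's GABA, read 278.6, 219.0 and 162.4 FPKM, beside 91.0 to 149.4.
The remaining genes did not move as one in these libraries. Slc32a1 was 174.8 FPKM in sedentary replicate 6 and 74.5 in 0-0-2 replicate 4 but 35.4 in 14-14-0 replicate 3, inside the range of the others (8.87 to 39.3). Pvalb went the other way, at 19.9, 28.6 and 29.6 FPKM beside 28.6 to 87.9 elsewhere, and its value in sedentary replicate 6 was the lowest of the 70. Lhx6 was high in sedentary replicate 6 (8.49 FPKM) but 5.19 in 0-0-2 replicate 4 and 4.04 in 14-14-0 replicate 3. Gad1 and Gad2 did not rise in proportion either: their ratio was 2.00, 2.08 and 2.50 in the 3 libraries and 3.00 to 4.12 in the others.
Calb2 had the widest spread of the 9 genes. It read 120.8 FPKM in sedentary replicate 6, 97.9 in 14-14-0 replicate 3 and 44.3 in 0-0-2 replicate 4, but also 55.1 in 0-0-2 replicate 8, beside a median of 8.13 over all 70 libraries.

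Genes of other brain regions moved with the interneuron genes in these libraries, which are taken here in the order sedentary replicate 6, 0-0-2 replicate 4 and 14-14-0 replicate 3. Slc17a7, the vesicular glutamate transporter of hippocampal principal neurons, was at 17.1, 395.0 and 464.4 FPKM, beside 366.6 to 869.6 in the 67 others. Of 8 excitatory neuron markers, 6, 1 and 2 were below every other library, and their summed level was 507.6, 1700 and 1580 FPKM, beside 1513 to 2518. The principal neuron signal was thus far lower in sedentary replicate 6 than in any other library.
Striatal markers were raised most in sedentary replicate 6. Of 6 striatal markers, 6, 5 and 2 were above every other library, and they summed to 250.9, 86.9 and 92.7 FPKM, beside 28.3 to 112.9. Drd2, a dopamine receptor of striatal projection neurons that is also on the mossy cell list, was at 24.9, 13.7 and 6.68 FPKM, beside at most 3.49. Of 8 markers of the olfactory bulb and subpallial progenitors, a list that holds some of the lineage factors used below, 7, 6 and 5 were above every other library, and they summed to 88.9, 32.7 and 36.9 FPKM, beside 5.78 to 15.00.
Of 8 thalamic markers, a list that holds Calb2 itself, 3, 2 and 3 were above every other library. These were Prkcd and Zic1 in all 3 libraries, and Calb2 in sedentary replicate 6 and 14-14-0 replicate 3. Zic1, a zinc finger factor, was at 97.3, 44.7 and 34.5 FPKM, beside at most 12.03. Oligodendrocyte RNA was also high in sedentary replicate 6, where 5 of 5 markers were above every library outside the 3. They summed to 6486, 2828 and 4114 FPKM, beside 1227 to 4630. No marker of these lists was at 0 in the 3 libraries. Vip, an interneuron peptide gene, was lower in all 3 (2.08, 4.59 and 4.80 FPKM) than in any other library (5.10 to 16.1). The part of tissue makeup in the values of the 9 genes was not tested, and results that rest on these libraries are given with and without them.

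**Figure D1:**
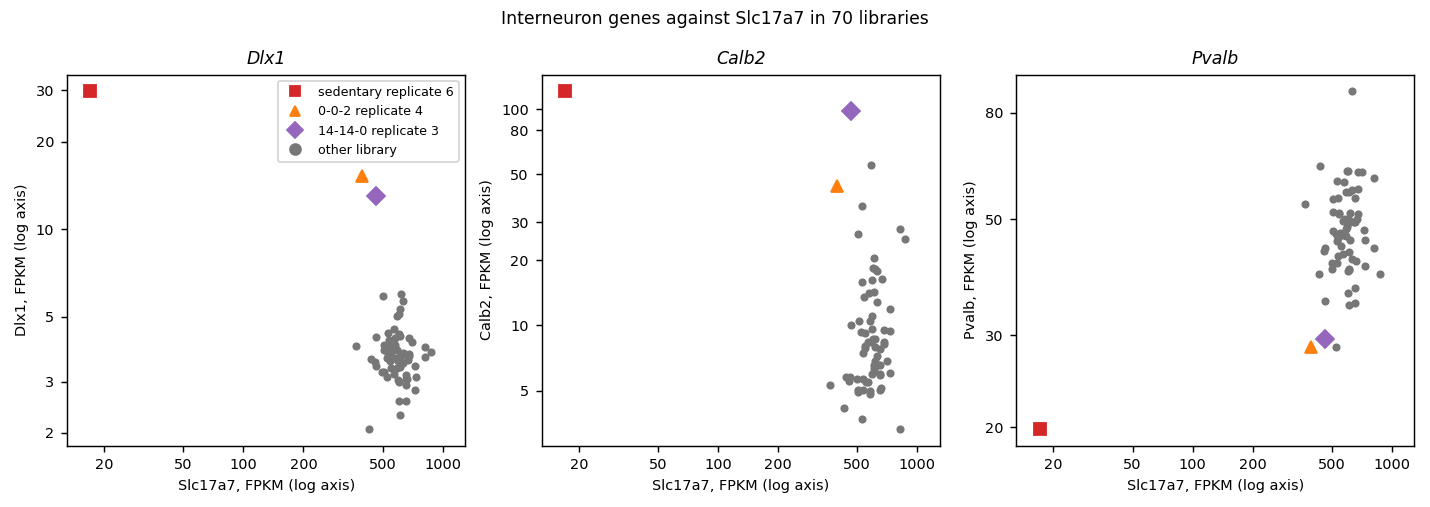
Dlx1, Calb2 and Pvalb (FPKM, log axes) against Slc17a7 (FPKM, log axis) in each of the 70 libraries, with 3 libraries marked by colour and shape. Sedentary replicate 6 sits alone at 17.1 FPKM of Slc17a7 with the highest Dlx1 (29.8) and the lowest Pvalb (19.9), while the other 2 marked libraries are high in Dlx1 at Slc17a7 levels near the low end of the remaining 67.

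Between the 7 groups the levels of the 9 genes overlapped throughout. In each gene the ranges of all 21 pairs of groups overlapped. Ordered by median, all 54 neighbouring pairs of groups (6 for each gene) differed by less than the pooled SD of the pair. Neighbours in such an order have the closest medians, and these SDs include the 3 libraries above, so this count does not show the groups alike. The highest group median exceeded the lowest by 1.07-fold for Reln, 1.08 for Gad1, 1.11 for Dlx1, 1.13 for Gad2, 1.19 for Lhx6, 1.21 for Erbb4, 1.28 for Pvalb, 1.33 for Calb2 and 1.47 for Slc32a1. 
The transmitter genes were ordered differently from each other. Median Gad1 was 127.5 FPKM in 14-7-0, 125.0 in home cage, 123.8 in sedentary, 123.2 in 14-14-0, 120.3 in 0-0-2, 119.4 in 14-0-0 and 118.3 in 14-7-2. Median Gad2 was 37.8 FPKM in 14-7-0, 35.4 in sedentary, 34.97 in 0-0-2, 34.8 in 14-0-0, 33.97 in 14-14-0 and 33.8 in 14-7-2, with home cage lowest at 33.3. Median Slc32a1 was 29.5 FPKM in sedentary, 27.2 in 14-14-0, 24.1 in 0-0-2, 22.9 in 14-7-0, 21.5 in 14-0-0, 20.9 in home cage and 20.03 in 14-7-2.
The 14-7-2 group was thus lowest for Gad1 and Slc32a1 and next to lowest for Gad2. Median Pvalb was 53.1 FPKM in 14-0-0, 49.5 in 14-7-0, 48.5 in sedentary, 47.96 in home cage, 46.2 in 0-0-2, 45.3 in 14-7-2 and 41.4 in 14-14-0. Median Calb2 was 9.42 FPKM in home cage, 8.43 in 14-0-0, 8.19 in 14-7-2, 8.06 in 0-0-2, 7.61 in sedentary, 7.49 in 14-14-0 and 7.06 in 14-7-0.
The orders of these calcium-binding protein genes shared neither their highest nor their lowest group. Median Reln was 6.59 FPKM in sedentary, 6.55 in 0-0-2, 6.43 in 14-7-2, 6.39 in 14-0-0, 6.38 in 14-7-0, 6.31 in home cage and 6.17 in 14-14-0. Median Dlx1 was 3.92 FPKM in 14-7-0, 3.88 in sedentary, 3.74 in 0-0-2, 3.68 in 14-14-0, 3.63 in 14-7-2, 3.61 in home cage and 3.54 in 14-0-0. Median Erbb4 was 4.37 FPKM in sedentary, 4.18 in 0-0-2, 4.17 in 14-14-0, 4.05 in 14-0-0, 4.05 in home cage, 4.03 in 14-7-0 and 3.61 in 14-7-2.
Sedentary libraries had the highest median of Slc32a1, Reln, Lhx6 and Erbb4. Outside the 3 libraries above, the coefficient of variation over the 67 libraries was smallest for Gad1 (8.64%) and Gad2 (9.94%), 12.7% for Lhx6, 13.9% for Reln, 18.9% for Pvalb, 20.03% for Dlx1, 24.4% for Erbb4 and 32.0% for Slc32a1, and largest for Calb2 (79.4%).
A moderated F test over the 7 groups (limma) called 0 of the 9 genes at an unadjusted p under 0.05, beside 7.63% of all tested genes, and the smallest p was 0.0541 for Lhx6. Without sedentary replicate 6 it again called 0 of 9, beside 8.47% of all genes. With harvest cohort in the model it called 1 of 9, Lhx6 (p = 0.0197), and without the shallow 14-7-0 replicate 4 it also called Lhx6 (p = 0.0367). The share of all genes called in these fits is not given here.

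**Figure D2:**
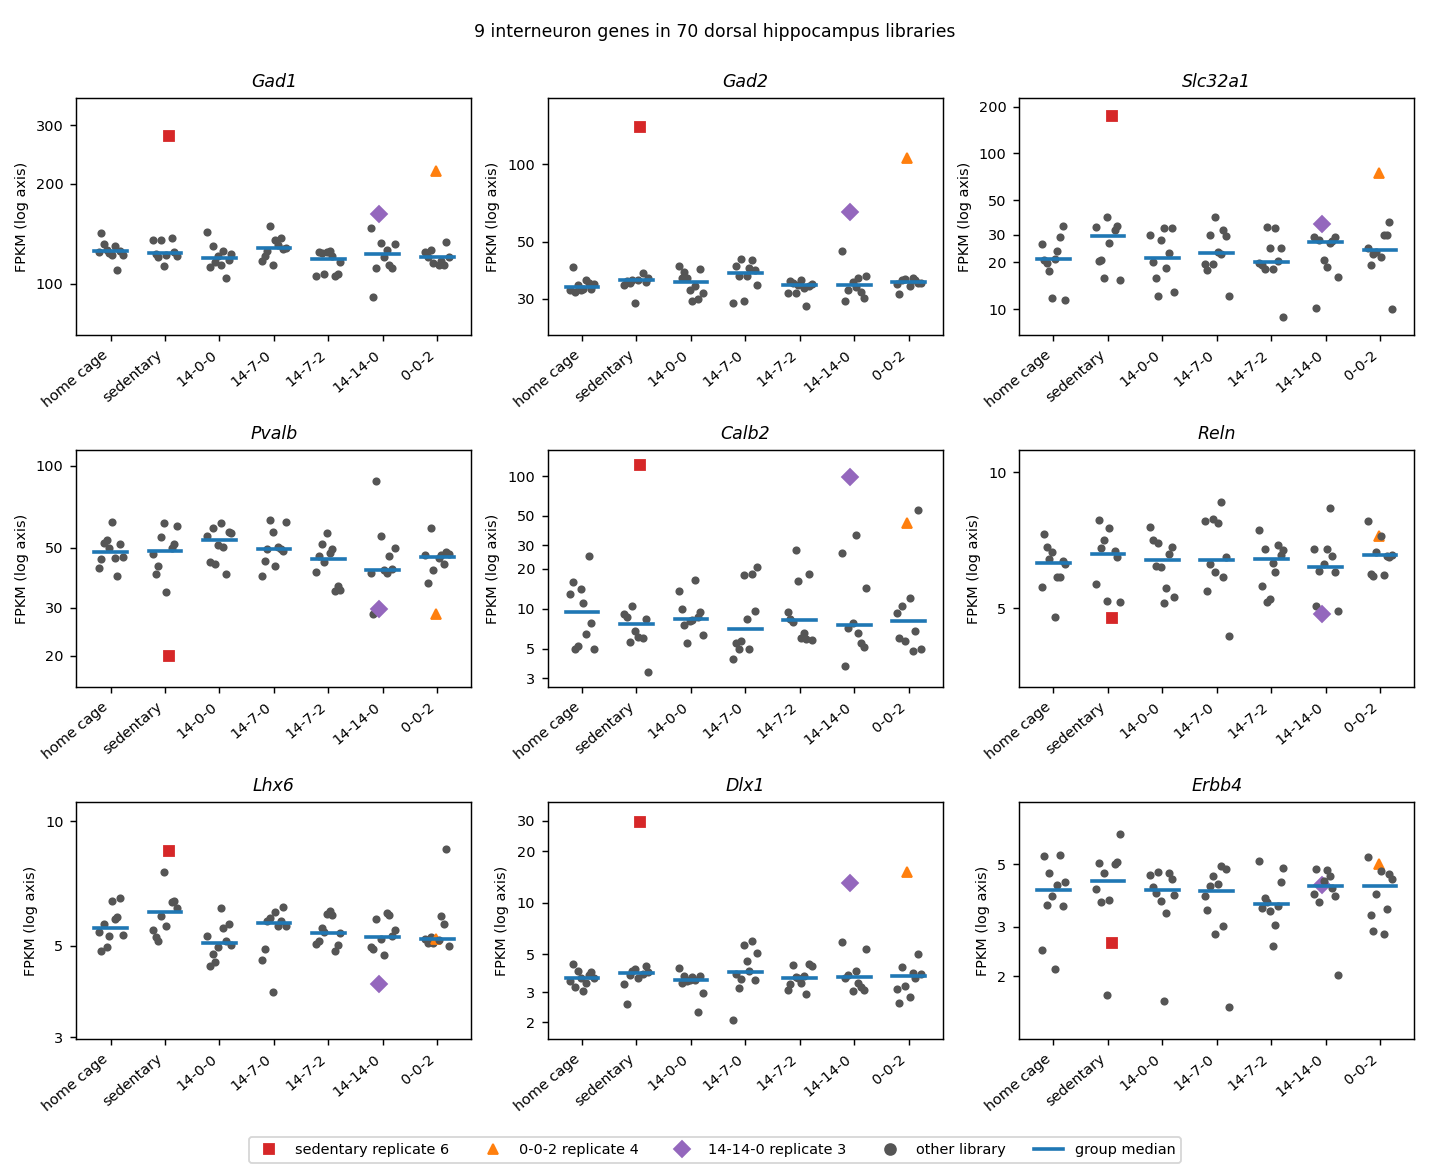
FPKM (log axis) of the 9 genes in the 10 libraries of each group, 1 panel per gene, with the group median as a blue bar and 3 libraries marked. Group medians lie close together in every panel, and the marked libraries are the highest for Gad1, Gad2 and Dlx1 and low for Pvalb.

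Each group was then compared with sedentary mice, in which no running preceded the same OLM session, or, for home cage, to set untrained against trained mice. Differences are of mean log2(FPKM + 0.1), which understates changes of low genes, and were tested with a two-sided moderated test in limma on the 20 libraries of each comparison, called at the unadjusted p under 0.05 that the study used. Of 54 values (9 genes in 6 comparisons), 3 were called, all of them Lhx6 and all lower. The share of all tested genes called was 9.15% for 14-0-0, the largest of the 6. It was 4.95% for 14-14-0 and 4.39% for 14-7-2, and 3.26% for 14-7-0, 2.37% for 0-0-2 and 2.3% for home cage. The 9 genes gave 1 call in each of 14-0-0, 14-14-0 and 14-7-2 and 0 in the others, and the median of their log2 differences lay between -0.18 and -0.04, beside medians of -0.01 to 0.01 over all tested genes. The median of the 9 genes without sedentary replicate 6 lay between -0.12 and 0.04 and was positive in 14-7-0 (0.03) and 0-0-2 (0.04). The 0-0-2 group then still held replicate 4, and without all 3 libraries above its median was -0.06. Since the 6 comparisons share the sedentary libraries, they are not separate evidence for a gene.

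Lhx6, the LIM homeobox factor of medial eminence interneurons (parvalbumin and somatostatin cells), was the gene of these 3 calls. A single call is the fewest that 9 genes can give, so the calls do not set the 9 genes apart from all tested genes. In sedentary libraries its lowest, median and highest levels were 5.14, 6.03 and 8.49 FPKM. They were 4.47, 5.08 and 6.18 in 14-0-0. They were 3.86, 5.66 and 6.20 in 14-7-0.
These ranges overlap, with 4 sedentary libraries (6.37, 6.40, 7.56 and 8.49 FPKM) above every library of either exercise group. The corresponding values were 4.86, 5.38 and 6.05 FPKM in 14-7-2. They were 4.04, 5.24 and 5.998 in 14-14-0. In 0-0-2 they were 4.99, 5.19 and 8.57.
The high 0-0-2 value is replicate 8 alone, since the next library of that group was at 5.90 FPKM. Home cage libraries, which had no OLM session, ran from 4.84 over a median of 5.51 to 6.51 FPKM. Lhx6 in 9 of 10 libraries of 14-0-0, 9 of 10 of 14-7-2 and 10 of 10 of 14-14-0 lay under the sedentary median.
The log2 difference of Lhx6 from sedentary was -0.26 ± 0.09 (SE) in 14-0-0 (limma p = 0.00715, adjusted p = 0.338 over 12994 genes). In 14-14-0 it was -0.24 ± 0.09 (p = 0.0147, adjusted p = 0.974), and in 14-7-2 it was -0.18 ± 0.08 (p = 0.0378, adjusted p = 0.847). Differences of -0.20 in 14-7-0, -0.15 in 0-0-2 and -0.14 in home cage were not called. The libraries of Lhx6 were also permuted (a two-sided permutation test of mean log2 values with 100000 resamples). The permutation p adjusted over its 6 comparisons, but not over the 9 genes, was 0.0290 for 14-0-0, 0.0360 for 14-14-0 and 0.06 for 14-7-2.
Without sedentary replicate 6, Lhx6 was still called in 14-0-0 (-0.21, p = 0.0117) and 14-14-0 (-0.19, p = 0.0275) but not in 14-7-2 (-0.13, p = 0.0715), and without all 3 libraries also not in 14-14-0 (-0.15, p = 0.0535). Without sedentary replicate 6 the share of all genes called was 10.3% for 14-0-0, 6.97% for 14-14-0 and 3.58% for 14-7-2. For 14-7-0 it was 3.29%, for home cage 3.15% and for 0-0-2 2.52%. Within single harvest cohorts of 5 against 5 libraries the 3 differences kept their sign (-0.27, -0.10 and -0.23 in cohort 1 and -0.25, -0.26 and -0.25 in cohort 2, for 14-0-0, 14-7-2 and 14-14-0), and 1 of these 6 was called, 14-0-0 in cohort 1 (p = 0.0385).

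The genes of GABA synthesis and packaging were not called against sedentary in the 10 against 10 fits. Gad1 in sedentary libraries ran from 113.0 over a median of 123.8 to 278.6 FPKM, and the highest without replicate 6 was 137.1. In 14-7-2 libraries Gad1 ran from 105.1 over 118.3 to 125.2 FPKM. The group lay lower than sedentary, with overlap.
Its log2 difference was -0.23 ± 0.12 (p = 0.0624), and without sedentary replicate 6 it was smaller but passed the threshold (-0.12 ± 0.05, p = 0.0297, adjusted p = 0.998). Gad1 differed from sedentary by -0.18 in 14-0-0, -0.14 in 14-14-0, -0.11 in home cage, -0.09 in 0-0-2 and -0.08 in 14-7-0, all uncalled, and by -0.06 to 0.03 without that library. Gad2 differed by -0.27 to -0.04 over the 6 comparisons with it and by -0.07 to 0.16 without it. Without all 3 libraries Gad2 differed by -0.07 to 0.08.
Slc32a1, the vesicular GABA transporter, had the largest differences of the 3 genes and the largest errors. It ran from 15.4 over 29.5 to 174.8 FPKM in sedentary libraries, from 12.1 over 21.5 to 33.3 in 14-0-0 and from 8.87 over 20.03 to 33.6 in 14-7-2. Its log2 difference was -0.52 ± 0.34 in 14-0-0, -0.55 ± 0.34 in 14-7-2 and -0.58 ± 0.33 in home cage, with p from 0.0990 to 0.142. Without sedentary replicate 6 they were -0.24, -0.27 and -0.30.

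None of the calcium-binding protein genes, Reln, Dlx1 or Erbb4 was called against sedentary. Pvalb ran from 19.9 over 48.5 to 61.7 FPKM in sedentary libraries, from 40.1 over 53.1 to 61.5 in 14-0-0 and from 28.6 over 41.4 to 87.9 in 14-14-0. The 6 differences of Pvalb spanned -0.02 to 0.22 (log2), and -0.14 to 0.09 without sedentary replicate 6. Calb2 ran from 3.33 over 7.61 to 120.8 FPKM in sedentary libraries and from 3.68 over 7.49 to 97.9 in 14-14-0.
These wide ranges left standard errors of 0.43 to 0.61 on the log2 differences of Calb2 (-0.12 to 0.36). Without sedentary replicate 6 its differences were 0.29 to 0.78, all positive, and none was called. Without all 3 libraries they were 0.29 to 0.49. Dlx1 likewise turned from -0.40 to -0.07 over the 6 comparisons to -0.10 to 0.23 without sedentary replicate 6. Its differences were -0.10 to 0.11 without all 3 libraries.
Reln, the large extracellular matrix protein that signals through lipoprotein receptors, was among the steadiest, at 4.76, 6.59 and 7.83 FPKM (lowest, median and highest) in sedentary libraries and 5.13, 6.39 and 7.55 in 14-0-0. Its 6 differences lay between -0.04 and 0.08. Erbb4 was at 1.72, 4.37 and 6.40 FPKM in sedentary libraries and 2.57, 3.61 and 5.14 in 14-7-2, and its differences lay between -0.15 and -0.0045.

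**Figure D3:**
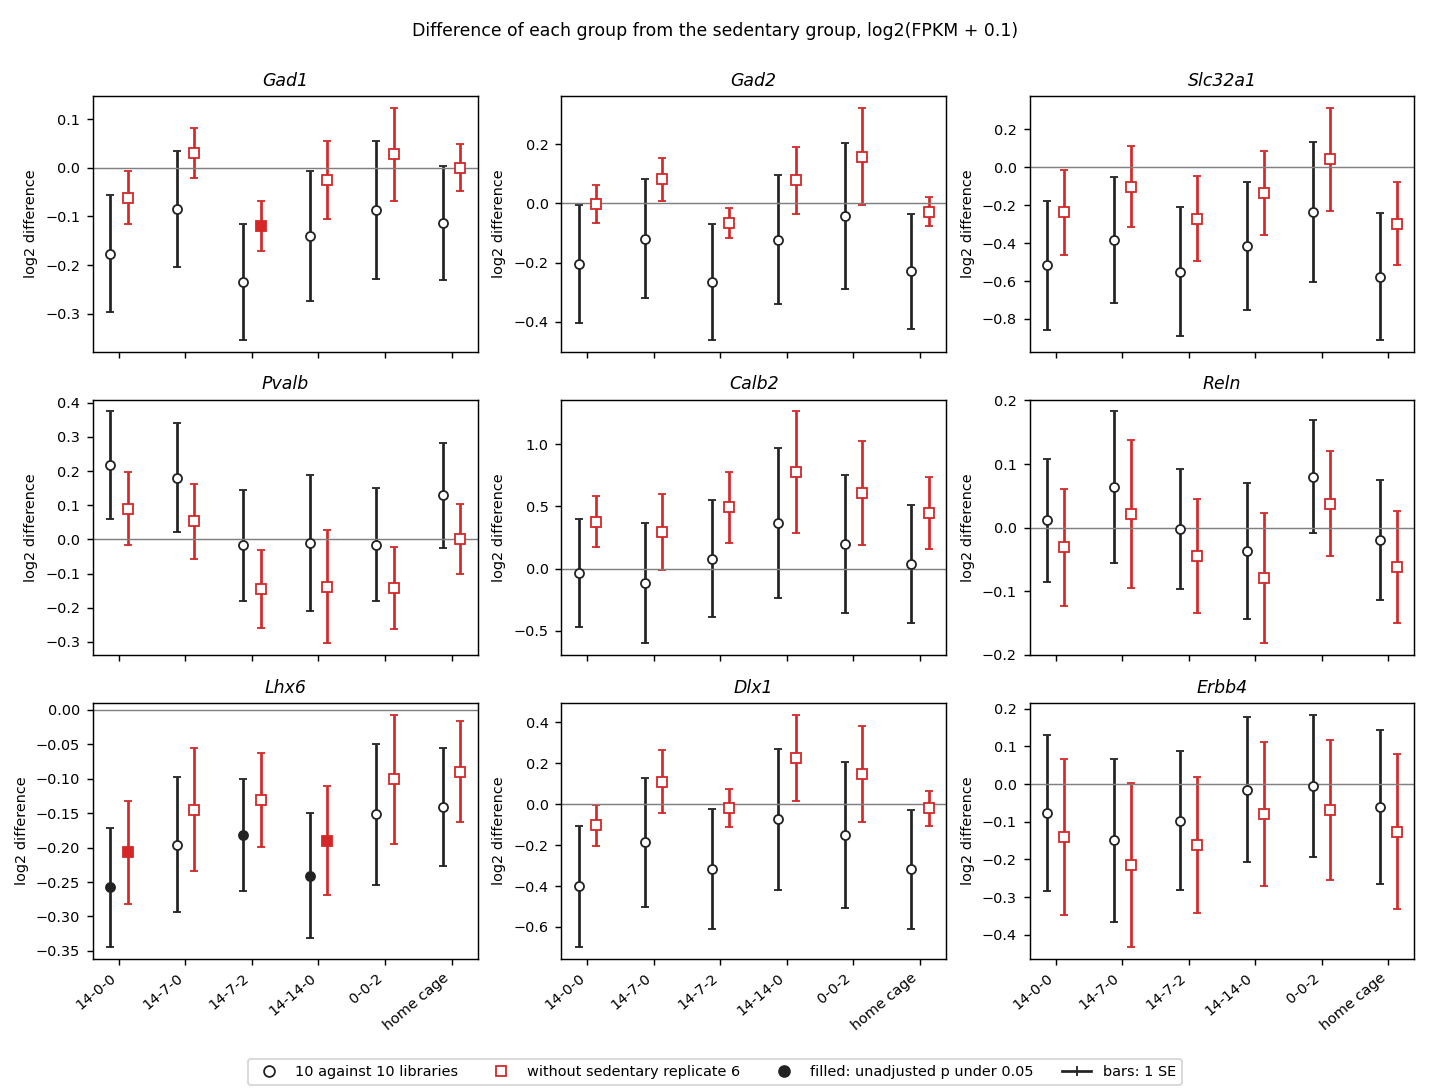
Log2 difference of each group from sedentary for the 9 genes, as mean log2(FPKM + 0.1) with bars of 1 SE, for 10 against 10 libraries (black circles) and without sedentary replicate 6 (red squares). Filled symbols have an unadjusted limma p under 0.05: Lhx6 in 3 groups with all libraries, Lhx6 in 14-0-0 and 14-14-0 and Gad1 in 14-7-2 without that library.

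To ask what running up to training added after a 7-day delay, 14-7-2 was set against 14-7-0, a comparison that uses none of the 3 libraries above. Both glutamate decarboxylase genes fell in 14-7-2. Gad1 ran from 114.0 over 127.5 to 149.4 FPKM in 14-7-0 and from 105.1 over 118.3 to 125.2 in 14-7-2. Gad2 ran from 28.9 over 37.8 to 42.7 in 14-7-0 and from 28.1 over 33.8 to 35.4 in 14-7-2.
All 10 libraries of 14-7-2 were under the 14-7-0 median for either gene, although the ranges overlap. The log2 difference was -0.15 ± 0.05 for Gad1 (p = 0.00996, adjusted p = 0.661) and -0.15 ± 0.07 for Gad2 (p = 0.0477, adjusted p = 0.927). These are 2 of 9 genes, beside 5.39% of all tested genes. A permutation test (100000 resamples) gave adjusted p = 0.0176 for Gad1 and 0.106 for Gad2. The adjustment was over 2 comparisons and not over the 9 genes.
Pvalb (-0.20 ± 0.10, p = 0.0639), Slc32a1 (-0.17), Dlx1 (-0.13) and Reln (-0.07) were not called. Calb2 (0.20), Erbb4 (0.05) and Lhx6 (0.01) had positive values and were not called. In cohort 1 alone Gad1 and Gad2 differed by -0.10 and -0.07 and were not called, and in cohort 2 alone by -0.20 and -0.22 and both were called, as was Pvalb (-0.32, p = 0.0351). The cohorts were not shown to differ in these 3 differences (interaction p = 0.349, 0.321 and 0.222 in limma). In a fit of all 7 groups together, neither Gad1 (p = 0.121) nor Gad2 (p = 0.350) was called, and with harvest cohort as a covariate Gad2 was not called (p = 0.0510).
Setting 14-0-0 against 14-7-0 called 0 of the 9 genes in limma, beside 5.63% of all genes, with Gad1 at -0.09 ± 0.06 (p = 0.116) and Dlx1 at -0.21 ± 0.15 (p = 0.170). The Cyber-T formula, the study's own statistic applied to FPKM, also called 0 in this comparison and 0 in 14-7-2 against 14-7-0. In cohort 2 alone, 14-0-0 was lower than 14-7-0 for Gad1 (-0.17, p = 0.0171), Gad2 (-0.23, p = 0.0279) and Dlx1 (-0.50, p = 0.0152), and none was called in cohort 1 alone. Both comparisons share the 14-7-0 libraries.

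Other genes of the inhibitory system were read from lists chosen with earlier results of these data known. In 14-7-2 against 14-7-0, 5.39% of all tested genes were called. Of 17 tested interneuron subtype genes, 5 were called lower and none higher, and 6 of the 17 had higher means. The median log2 difference of the 17 was -0.13, beside 0.00 over all genes. Lamp5, a marker of neurogliaform cells, fell by 0.25 on the log2 scale (SE 0.07, p = 0.00133, adjusted p = 0.487). Vip fell by 0.35 (SE 0.12, p = 0.00889) and Tac1, the substance P precursor, by 0.33 (SE 0.12, p = 0.0154). The other 2, Nos1 and Ndnf, fell by 0.21 each. Without the shallow 14-7-0 replicate 4 the same 5 genes were called. In cohort 1 alone 0 of 17 were called, in cohort 2 alone 3 (Lamp5, Nos1 and Vip), and in the fit of all 7 groups 2 (Lamp5 and Nos1). The share of all genes called in those fits is not given here.
Among 13 tested lineage factors 1 was called, Sox6 (-0.17, p = 0.0156), which acts downstream of Lhx6, and 4 had higher means. Among genes of GABA handling, Glul, the astrocytic glutamine synthetase, fell (-0.20, p = 0.0154). Of 9 genes of parvalbumin cell physiology and perineuronal nets and 5 inhibitory postsynaptic genes, none was called. None of 4 neuregulin and ErbB genes was called either. Of 7 reelin pathway genes 1 was called, Lrp8, a reelin receptor, which was higher (0.15, p = 0.00705). Of 5 oligodendrocyte markers, all had lower means in 14-7-2 and 1, Mobp, was called (-0.33, p = 0.0301). Their summed level ran from 2346 to 3633 FPKM in 14-7-0 and from 1265 to 3297 in 14-7-2. Of 4 astrocyte markers 1 was called, Slc1a3, which was lower (-0.14, p = 0.00935), and 3 had higher means. Of 8 excitatory neuron markers, Wfs1 fell (-0.55, p = 0.00378) and Bok rose (0.78, p = 0.0210), and their summed level ran from 1880 to 2432 FPKM in 14-7-0 and from 1764 to 2501 in 14-7-2. The part of tissue makeup in the lower interneuron values was not tested.

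Against sedentary, few genes of the same lists were called. In 14-0-0, 9.15% of all tested genes were called. Of 17 subtype genes 1 was called, lower (Nos1, -0.22, p = 0.0245), and 8 had higher means. Of 4 neuregulin and ErbB genes 1 was called, lower (Erbb3, -0.40, p = 0.0268). Among GABA handling genes Slc6a13, the leptomeningeal transporter GAT2, rose (0.48, p = 0.0289, and p = 0.0502 without sedentary replicate 6).
In 14-7-2, Nos1 (-0.21, p = 0.0440), Dlx6os1 (-0.28, p = 0.00176) and Sox6 (-0.23, p = 0.00491) fell. The long noncoding Dlx6os1 of the Dlx5 and Dlx6 locus also fell in 14-14-0 (-0.20, p = 0.0274). In that group Nr2f2, a caudal eminence factor (0.39, p = 0.0390), Slc6a13 (0.49, p = 0.0402) and Slc12a2, the chloride importer NKCC1 (0.54, p = 0.0232), rose.
Of these lists, in 14-7-0 Lamp5 alone was called (0.17, p = 0.0378), in 0-0-2 Erbb3 alone (-0.46, p = 0.0263) and in home cage Slc6a13 alone (0.46, p = 0.0322). In 14-0-0 against 14-7-0, Nos1 (-0.22), Sp9 (-0.60) and Erbb3 (-0.29) fell and Lrp8 rose (0.15), with p from 0.00599 to 0.0279. No gene named in these lists passed adjustment over all genes. Without sedentary replicate 6, Lamp5 in 14-7-0 (p = 0.0744) and Dlx6os1 in 14-14-0 (p = 0.0544) were no longer called. Slc6a13 was no longer called in 14-14-0 (p = 0.0663) and home cage (p = 0.0552), and Nos1 remained called in 14-0-0 (p = 0.00127) and 14-7-2 (p = 0.00445). Leaving out that library also added calls. Of 17 subtype genes, 1 was then called higher and 2 lower in 14-0-0, and likewise in 14-14-0. Of 9 genes of parvalbumin cell physiology and nets, 1 was then called lower in each of 14-0-0, 14-7-0, 14-14-0 and 0-0-2, and 0 with all libraries.
Choroid plexus and oligodendrocyte RNA moved with some of these genes. All 7 choroid plexus markers were called higher in 14-0-0 and in 14-14-0, where Slc6a13 rose, as did Slc12a2 in 14-14-0. In home cage all 7 had higher means and 4 of 7 were called. All 7 also had higher means in 14-7-2 and in 0-0-2, where none was called. Their summed level ran from 22.9 to 367.4 FPKM in sedentary libraries, from 34.2 to 16094 in 14-0-0, from 42.1 to 21850 in 14-14-0 and from 67.7 to 15607 in home cage. Erbb3, which oligodendrocytes also express, fell in 0-0-2 against sedentary and in 14-0-0 against 14-7-0. In both, all 5 oligodendrocyte markers had lower means and 3 of 5 (Mag, Mbp and Mobp) were called. Erbb3 also fell in 14-0-0 against sedentary, where all 5 markers had lower means and 0 of 5 were called (median -0.29). Erbb3 in 0-0-2 was still called without sedentary replicate 6 (p = 0.0489), but of the markers Mobp alone was (p = 0.0388). The part of either cell type in these values was not tested.

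Lhx6 was also the only one of the 9 genes called between the harvest cohorts, the single batch that the labels give. It ran from 3.86 over 5.19 to 7.56 FPKM in the 35 libraries of cohort 1 and from 4.73 over 5.74 to 8.57 in the 35 of cohort 2. The cohort 2 mean was higher in all 7 groups, and 28 of 35 cohort 2 libraries were above the cohort 1 median. With group in the model the log2 difference was 0.16 ± 0.04 (limma p = 0.000104, adjusted p = 0.0347 over 12994 genes). This is 1 of 9 genes, beside 11.9% of all tested genes called at the unadjusted threshold and 76 that passed adjustment. It was 0.15 (adjusted p = 0.0341) without sedentary replicate 6 and 0.14 (p = 0.000247) with the GC slope described next in the model. For the other 8 genes the cohort difference lay between -0.07 and 0.07 (adjusted p from 0.856 to 0.997).

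Slc32a1 varied with the base composition bias of its library. For each library a GC slope was computed, the change in log2(FPKM + 0.1) relative to the gene's mean for each 10 percentage points of transcript GC content over 12027 tested genes. The longest Slc32a1 transcript has 61.9% G and C, more than 97.9% of tested genes, whose median is 50.3%. Over the 67 libraries, with values centred within group and cohort, Slc32a1 correlated with the slope at Pearson r = 0.87 and Spearman rho = 0.86 (permutation p = 1e-05 for both, the smallest 100000 resamples can give, adjusted p = 9e-05 over 9 genes). The correlation was 0.83 in cohort 1, 0.91 in cohort 2 and 0.85 without the 2 libraries farthest from the median slope, and it was higher than for 96.8% of tested genes. Over all 70 libraries it was 0.79.
Lhx6, whose transcript has 56.2% G and C, correlated at r = 0.42 (rho = 0.43, permutation p = 0.0004 for both, adjusted p = 0.0018). Erbb4, with 40.6%, correlated at r = -0.39 (rho = -0.39, permutation p = 0.00129 and 0.00148), and Gad2, with 44.1%, at r = -0.30 (rho = -0.34, permutation p = 0.0137 and 0.00502). Calb2, Pvalb, Dlx1, Gad1 and Reln had correlations from -0.10 to 0.26 and adjusted permutation p over 0.05.
Replicate 9 had a slope below 0 in each group and the lowest or next to lowest Slc32a1 of its 10 libraries. Those 7 levels were 11.4 FPKM in home cage, 15.4 in sedentary, 12.9 in 14-0-0, 12.1 in 14-7-0, 8.87 in 14-7-2, 16.2 in 14-14-0 and 10.1 in 0-0-2. Group medians of the slope ran from -0.02 in 14-7-0 to 0.07 in sedentary libraries. With the slope in the model the log2 difference of Slc32a1 from sedentary was -0.20 in 14-0-0. Lhx6 was still called in 14-0-0 (-0.18, p = 0.00723) and 14-14-0 (-0.19, p = 0.0163) but not in 14-7-2 (-0.14, p = 0.0705).

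**Figure D4:**
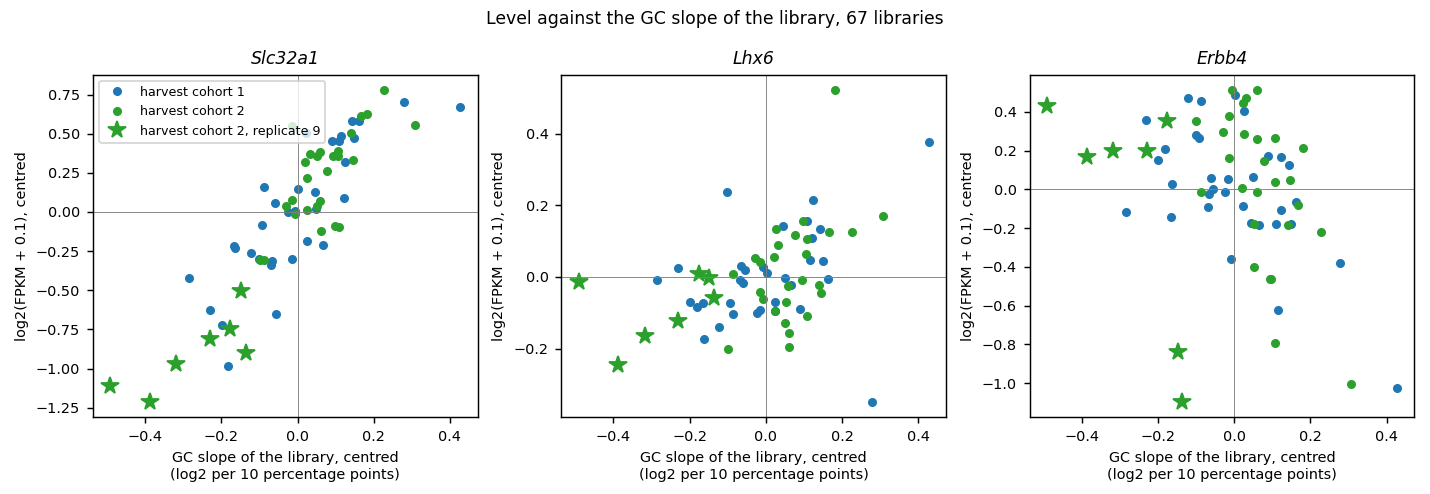
Centred log2(FPKM + 0.1) of Slc32a1, Lhx6 and Erbb4 against the centred GC slope (log2 per 10 percentage points of GC) in 67 libraries, coloured by harvest cohort, with replicate 9 of each group as stars. Slc32a1 rises with the slope (r = 0.87), Lhx6 rises less (r = 0.42) and Erbb4 falls (r = -0.39).

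Across libraries, the genes that varied together were few once the 3 libraries were left out. Values were centred within group and cohort, and the points share library, depth and dissection. The values were not adjusted for the GC slope, with which Slc32a1, Lhx6, Erbb4 and Gad2 correlated, and its part in these pairs was not tested. Of 36 pairs, 11 had r over 0.5 in all 70 libraries and 3 in the 67 libraries. Gad1 and Gad2 correlated at r = 0.91 over 70 libraries and 0.69 over 67 (rho = 0.63, permutation p = 1e-05 for both, adjusted p = 0.00012 over 36 pairs), with 0.77 and 0.50 within the cohorts and 0.61 without the 2 farthest libraries. Reln and Erbb4 correlated at 0.68 over 70 and 0.66 over 67 libraries (rho = 0.59, adjusted permutation p = 0.00012 for both), with 0.67 and 0.66 within cohorts and 0.60 without the 2 farthest libraries. Calb2 and Dlx1 correlated at 0.76 and 0.51 (rho = 0.44, adjusted permutation p = 0.00012 for r and 0.00189 for rho), with 0.55 and 0.49 within cohorts and 0.49 without the 2 farthest.
Pairs that rested on the 3 libraries shrank, and pairs of Pvalb with Gad1, Gad2, Slc32a1, Calb2 and Dlx1 changed sign. The 3 libraries hold the highest Gad1, Gad2 and Dlx1, so a lower r among these genes partly follows from leaving them out. Gad1 and Pvalb correlated at r = -0.31 over 70 libraries and 0.37 over 67 (rho = 0.38, adjusted permutation p = 0.0129 for r, 0.33 without the 2 farthest libraries). The r of Pvalb went from -0.50 to 0.08 with Gad2 and from -0.24 to 0.17 with Slc32a1. It went from -0.36 to 0.05 with Calb2 and from -0.39 to 0.29 with Dlx1. For Pvalb with Gad2, Slc32a1, Calb2 and Dlx1 the adjusted permutation p of r over 67 libraries was over 0.05. Gad2 and Dlx1 fell from 0.87 to 0.38 (0.22 without the 2 farthest libraries), and Gad1 and Slc32a1 from 0.54 to 0.09. Pvalb and Lhx6, which share the medial eminence lineage, correlated at 0.43 over 67 libraries (rho = 0.54, adjusted permutation p = 0.00369 for r, 0.43 without the 2 farthest libraries). In all, 11 of the 36 pairs had an adjusted permutation p under 0.05 for r over the 67 libraries, 10 positive and 1 negative, the last being Pvalb with Erbb4 (r = -0.36).

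**Figure D5:**
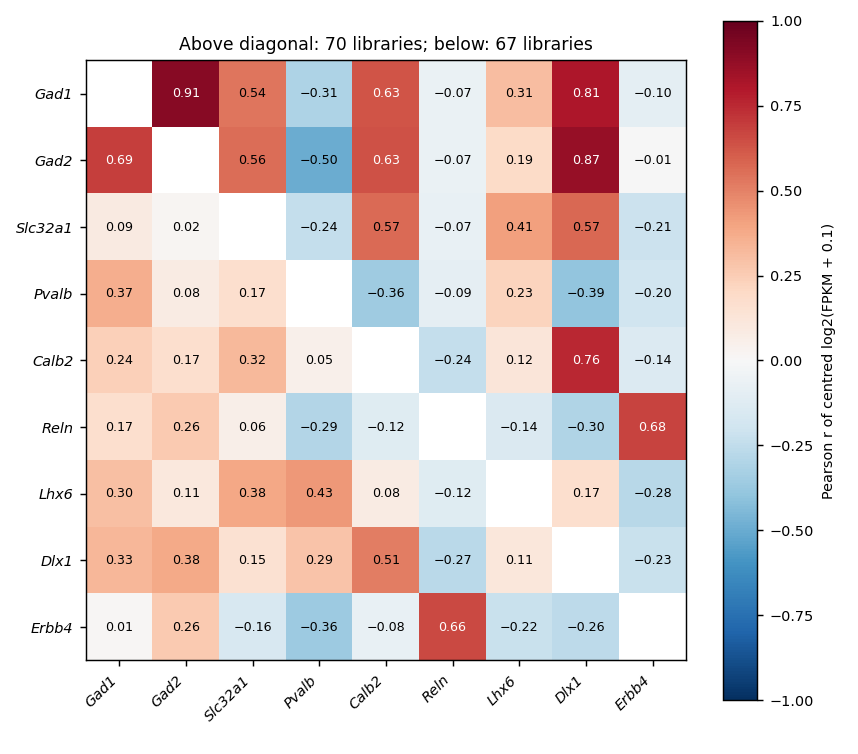
Pearson r between each pair of the 9 genes over centred log2(FPKM + 0.1), above the diagonal for 70 libraries and below it for the 67 without sedentary replicate 6, 0-0-2 replicate 4 and 14-14-0 replicate 3. The block of high values among Gad1, Gad2, Slc32a1, Calb2 and Dlx1 above the diagonal is paler below it, while Gad1 with Gad2 (0.69) and Reln with Erbb4 (0.66) stay high.

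The tested genes whose centred levels were most like each of the 9, over the 69 libraries without sedentary replicate 6, differed between them. For Gad1 they were Gad2 (r = 0.85), Glra2 and Grk5. For Gad2 they were Gad1, Cacna2d2 (0.84) and Gm5607, and Cacna2d2 dropped to 0.43 over 67 libraries. For Dlx1 they were Sox1 (0.89, and 0.72 over 67), Gng4 and Zcchc12.
Slc32a1 was most like Gaa (0.91), Lppr3 and Klc4, and none of the 9 genes was among its 3. Pvalb was most like Crhbp (0.68), which encodes the binding protein of corticotropin-releasing hormone, Kcnab3 and Lxn. Calb2 was most like Ctxn3 (0.84), Dlk1 and Tmem163.
Reln was most like Sorl1 (0.82), Dock3 and Herc2, and Erbb4 most like Lnpep (0.88) and Ptpn4. Lhx6 had the weakest best match, Mtx1 (0.62), followed by Ckmt1 and 1700037H04Rik.

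Annotation sets limits on single genes. In GENCODE M21 (GRCm38) the Dlx1 gene, chr2:71528113-71533981, lies opposite Dlx1as, listed here at a mean of 10.99 FPKM, above Dlx1 itself. Strand is not stated for the counting, so reads of Dlx1 and Dlx1as over shared bases cannot be told apart. Dlx1as was also higher in the 3 libraries (28.5, 18.9 and 17.1 FPKM) than in the 67 others (5.02 to 15.1). Gad1 (chr2:70553072-70602014) lies opposite Gad1os, listed at a mean of 0.11 FPKM, and Slc32a1 (chr2:158610767-158615748) opposite Gm14205. Lhx6 (chr2:36081953-36105408), Gad2 (chr2:22622205-22693874), Pvalb (chr15:78191114-78206400) and Calb2 (chr8:110137502-110168210) have no antisense gene annotated over them. Reln (chr5:21884454-22344702) and Erbb4 (chr1:68032186-69108059) span several small noncoding genes and pseudogenes, for Reln with 2 antisense genes among them.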

How the data were processed

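Dorsal hippocampus RNA of 70 mice was sequenced, 10 per group. Alignment by the authors used ELAND v2e together with Bowtie, keeping reads that both placed uniquely with at most 2 mismatches, and the Tuxedo programs gave the FPKM they deposited. The submitters' processing notes name Bowtie, Cuffnorm and build mm10. Versions of Bowtie and Cuffnorm are not given in the sources used here. Read counts were not analysed here, and values carry no counting interval.

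Values were analysed as log2(FPKM + 0.1) for the 12994 of 24346 genes whose mean reached 1 FPKM. Groups were compared in R 4.3.3 with limma 3.58.1 (trend, two-sided, without covariates), and p-values were adjusted by Benjamini-Hochberg over 12994 genes. The fits were tested on simulated data. Single values were permuted 100000 times, correlations likewise. GC content came from GENCODE M21 transcripts, promoters from RefSeq (GRCm38.p6). Figures used matplotlib 3.10.9 under Python 3.11.15. No 2 libraries were identical, and the highest correlation between any 2 was 0.983. Nothing says that the mice of a group came from separate litters or preparations, so p-values measure only the spread between these samples.

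The members, lists, markers and alternatives were chosen with earlier results of these data known. The 9 genes are all named, with up to 3 called genes of smallest p per list and comparison, marker genes beside a result, and the 3 genes most like each member. Some genes that this rule names are not reported here, and counts for their lists are then left out. Nos1 and Ndnf in 14-7-2 against 14-7-0, and Dlx1as, were named after their values were seen. The 3 libraries left out together, the GC slope, and the settings for the lists were added after the data were seen. The other settings tried were a pseudocount of 1, minimum means of 0.1 FPKM and none, median ratio scaling, quantile normalization, without sedentary replicate 6, without 14-7-0 replicate 4, p under 0.01, a joint fit, harvest cohort as covariate or alone, replicate number as a block, and the Cyber-T formula with windows of 101 genes and a prior of 10 degrees.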

Additional observations from a re-analysis of the deposited data

Results flagged for a closer look

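Of 63 sets of 10 libraries (9 genes in 7 groups), 18 held a library set apart from its group by a gap too large, relative to the group's range, for Dixon's test. Chance flags about 1 in 20 sets, or 3.15 of 63. Of the 18, 12 were values of the 3 libraries described above. Sedentary replicate 6 was flagged for Gad1 (278.6 FPKM), Gad2 (139.4), Slc32a1 (174.8), Calb2 (120.8) and Dlx1 (29.8). The library 0-0-2 replicate 4 was flagged for Gad1 (219.0 FPKM), Gad2 (105.5), Slc32a1 (74.5) and Dlx1 (15.2), and 14-14-0 replicate 3 for Gad2 (65.1), Calb2 (97.9) and Dlx1 (13.02).

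The other 6 were single values. Pvalb was 87.9 FPKM in 14-14-0 replicate 2, beside 55.0 in the next library. Lhx6 was 8.57 FPKM in 0-0-2 replicate 8, beside 5.90. Gad2 was high in home cage replicate 1 (39.8 FPKM) and low in 14-7-2 replicate 7 (28.1). Erbb4 was low in 14-0-0 replicate 5 (1.64 FPKM) and in 14-14-0 replicate 9 (2.03).

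Of 72 tests of whether a difference varied with harvest cohort, 1 had an unadjusted p under 0.05. Calb2 in 14-7-2 against 14-7-0 differed by 0.91 on the log2 scale in cohort 1 and by -0.51 in cohort 2, so that cohort 2 minus cohort 1 was -1.42 (limma interaction p = 0.0441). The smallest adjusted p of the 72 over all tested genes was 0.785.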

How the results depend on the processing

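With 17 alternatives, the 6 called values of the 9 genes kept their sign in every alternative run, while 49 of the 75 values that were not called changed sign in at least 1. Lhx6 in 14-0-0 against sedentary was called in 15 of 16 alternatives that give its log2 difference (-0.27 to -0.16), in 14-14-0 in 13 (-0.26 to -0.15), in 14-7-2 in 9 (-0.26 to -0.10), and between cohorts in 10 of 10 (0.14 to 0.17). In 14-7-2 against 14-7-0, Gad1 was called in 14 of 16 (-0.20 to -0.10) and Gad2 in 10 (-0.22 to -0.07).

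The 3 calls against sedentary became 1 at p under 0.01 and in cohort 1 alone, 0 in cohort 2 alone and 6 in the joint fit, which added Lhx6 in 14-7-0, Gad1 in 14-7-2 and Slc32a1 in home cage. The Cyber-T formula kept 2, Lhx6 in 14-0-0 and 14-14-0. The 2 calls against 14-7-0 became 1 with quantile normalization, at p under 0.01 and with cohort as covariate, 0 in the joint fit, in cohort 1 alone and with the Cyber-T formula, and 6 in cohort 2 alone. The 0 calls across the 7 groups became 1 without 14-7-0 replicate 4 or with cohort as covariate. The cause of these shifts was not tested, except that a cohort alone has 5 against 5 libraries. Shares of all tested genes called in the alternative fits of this section are not given here, so its counts have no such share beside them.

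A replicate block gave 4 calls against sedentary, 1 against 14-7-0 and 1 across the 7 groups, and 1 against 14-7-0 with the GC slope added. Under the block Slc32a1 in 14-7-2 was called (-0.55, p = 0.0426) and Gad2 against 14-7-0 was not (p = 0.0682). The labels give no pairing by number. Of 210 same-numbered pairs of libraries, 96 had a correlation of deviations over 0.1. All 21 pairs of number 9 did (median 0.40), and medians for the other numbers were from -0.0010 to 0.11. In 14 of 70 libraries the best match outside the group had the same number.

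FPKM carry no read totals. In the shallow 14-7-0 replicate 4, Lhx6 was at 3.86 FPKM, its lowest value of the 70. An uncalled gene is not shown to be equal between groups.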
